A study of Mus musculus with 10 samples.

Results

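The untreated mutant heart was described across its genes. The deposited expression table has 5 columns of hearts from vehicle-treated Rit1 M90I/+ mice, and all 50348 of its 54532 genes that lie outside the X and Y chromosomes were taken. These are 5 of the 10 hearts sequenced, and the other hearts, from trametinib-treated mice, were not used. All animals carried 1 copy of the Rit1 M90I allele, made by crossing males with a conditional Rit1 M90I allele to females of a CMV-Cre deleter line, so that the allele was recombined in the whole animal and not in cardiomyocytes alone. Vehicle (carboxymethylcellulose with Tween 80) was given daily from 4 weeks of age for 20 weeks. The strain is not given in the sources used here, littermates of either sex entered the trial, and no heart without the M90I allele is part of the series, so nothing below separates an effect of the allele from the level of any mouse heart. Each heart came from a separate animal by its label (biological replicates 1 to 5, called hearts 1 to 5).

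RIT1 is a small GTPase of the RAS family, and its M90I substitution is among those found in Noonan syndrome, in which hypertrophic cardiomyopathy is frequent. The working ventricular myocyte is packed with sarcomeres, in which myosin thick filaments slide along actin thin filaments, and with mitochondria, which feed them ATP mainly from fatty acids. Myocytes fill most of the volume of the heart wall but are outnumbered by endothelial cells, fibroblasts, pericytes and macrophages, and the atria use their own set of myosin light chains and calcium regulators.

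Expression was given as FPKM, fragments per kilobase of gene length and per 1000000 fragments of the library. FPKM multiplied by gene length was a whole multiple of a single step for 100% of the values in each heart (within 0.001 of a whole number), from which the underlying fragment numbers were recovered. The hearts held 13647167 to 16659254 gene-assigned fragments each. A single fragment in a gene of 1 kilobase was worth 0.0594 to 0.0718 FPKM, and 3 fragments, the limit that a count of 0 allows, 0.178 to 0.215 FPKM. Of the 50348 genes, 21728 had a fragment in any heart, 14720 had one in every heart and 28620 had none. A mean of at least 1 FPKM was reached by 10433 genes, called expressed below, of which 9540 were protein-coding. Each heart had between 10242 and 10512 genes at 1 FPKM or more.

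The label of the tissue held against its markers. All 8 cardiomyocyte markers were expressed in each heart, with a summed level of 16329, 13709, 14234, 13217 and 12124 FPKM in hearts 1 to 5. Of the markers of tissues that lie next to the heart or could be taken with it, surfactant genes Sftpa1 and Sftpc, thymocyte genes Rag1 and Dntt, cartilage genes Matn1 and Col9a1, fast skeletal myosins Myh2 and Myh4, and the liver genes Alb and Fgb had no fragment in any heart. Other members of these lists were present. The skeletal muscle list summed to 18.9 to 34.6 FPKM, mostly Myl1, with 2 of 9 genes expressed, the cartilage list to 1.30 to 2.66 FPKM, mostly Cnmd, and the liver list to 0.985 to 2.21 FPKM, mostly Apoa2. The summed lung epithelium list stayed between 0.0963 and 0.254 FPKM and the thymocyte list between 0.0949 and 0.741 FPKM.

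Mitochondrial transcripts made up a large part of the FPKM. The 37 genes of the mitochondrial genome held 41.2, 44.9, 55.5, 46.5 and 47.7% of the FPKM in hearts 1 to 5 (47.2% ± 5.25, SD, n = 5). Heart 3 was the highest and heart 1 the lowest. Counted as fragments, which weight a transcript by its length, the share was 25.1, 27.0, 35.4, 30.8 and 31.5%, in the same order of hearts at both ends, and the 95% Wilson intervals of these shares were at most 0.0483 points wide. The difference between hearts was therefore far larger than counting error, which is all that such intervals cover.

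The 13 mitochondrial protein-coding genes encode subunits of respiratory complexes I, III, IV and V, and are cut from 2 long transcripts of opposite strands. mt-Co1, the catalytic subunit of complex IV, led all genes, with 57318, 66397, 100912, 74448 and 76863 FPKM in hearts 1 to 5. Heart 3 stood above the rest and heart 1 below. mt-Nd1, a complex I subunit, was second with 43299 ± 2780 FPKM, a coefficient of variation (CV, SD over mean) of 0.0642, and mt-Cytb of complex III came next with 38385 ± 4860 FPKM. mt-Nd2, mt-Nd4 and mt-Nd6, all of complex I, followed with 20178 ± 5957, 20067 ± 1600 and 19423 ± 6006 FPKM. mt-Nd5, the last large complex I subunit, was at 4094, 4592, 17015, 12686 and 8074 FPKM, a 4.16-fold range, with hearts 1 and 2 low and heart 3 high. mt-Nd6 is the only protein-coding gene read from the opposite strand, where its end overlaps that of mt-Nd5, and the labels used here do not say whether fragments were counted by strand. mt-Atp8, a subunit of complex V, was listed at only 5.78 to 29.6 FPKM, and the annotation overlaps it with mt-Atp6.

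Several mitochondrial genes had far lower values than mt-Co1: mt-Co2 was at 2390 ± 426 FPKM, mt-Co3 at 1702 ± 563, mt-Atp6 at 1544 ± 536 and mt-Nd3 at 744 ± 110 FPKM. All 4 of them have near-identical copies in the nuclear genome that span nearly their whole length. A copy of mt-Nd4, which was at 20067 ± 1600 FPKM, covers 876 of its 1378 bases. The part of such copies in the low values was not tested. Between positions 24611535 and 24616197 of chromosome 1 (mm10, minus strand) the annotation holds 6 unprocessed pseudogenes that copy mt-Nd4, mt-Nd3, mt-Co3, mt-Atp6, mt-Co2 and the 3′ part of mt-Co1. Gm28661 matched mt-Co2 at all of its 681 bases, Gm10925 matched mt-Atp6 at 678 of 678, Gm28437 matched mt-Co3 at 783 of 783 and Gm28439 matched mt-Nd4 at 876 of 876. Gm28438 differed from mt-Nd3 at 1 of 345 bases, and Gm29216 from mt-Co1 at 6 of 492 bases, all within its first 13. The starts of 2 copies are shown against the mitochondrial genes they copy, because they show how little sequence tells the pairs apart (GENCODE M21 transcripts, GRCm38, transcript strand). Capitals mark the bases that differ.
Gm28661 (bases 1 to 60): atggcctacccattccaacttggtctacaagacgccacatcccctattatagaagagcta
mt-Co2 (bases 1 to 60): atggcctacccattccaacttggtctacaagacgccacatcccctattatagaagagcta
Gm29216 (bases 1 to 60): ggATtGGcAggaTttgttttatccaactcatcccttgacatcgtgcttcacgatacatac
mt-Co1 (bases 1054 to 1113): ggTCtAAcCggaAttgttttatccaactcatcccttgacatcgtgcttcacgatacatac

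A fragment that lies within such a stretch cannot be given to either gene by its sequence. Of all runs of 100 bases in a transcript, the share found in another annotated gene was 99.5% for mt-Co2, 99.85% for mt-Co3, 99.5% for mt-Atp6, 97.6% for mt-Nd3, 60.8% for mt-Nd4 and 30.8% for mt-Co1, against 0% for mt-Nd1 and mt-Cytb. The levels of these pairs are thus uncertain, and how multi-mapped reads were treated is not given in the sources used here. The copies themselves were listed at high levels. Gm28661 was at 1494, 898, 1495, 1290 and 1314 FPKM in hearts 1 to 5. Gm29216 was at 2386, 1520, 1107, 956 and 9548 FPKM, with heart 5 well above the other 4, while mt-Co1 itself was not highest in heart 5. The copies together held 1.54 to 4.39% of the nuclear FPKM, and counting them as mitochondrial moved the mitochondrial share to 48.3% ± 5.23.

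**Figure D1:**
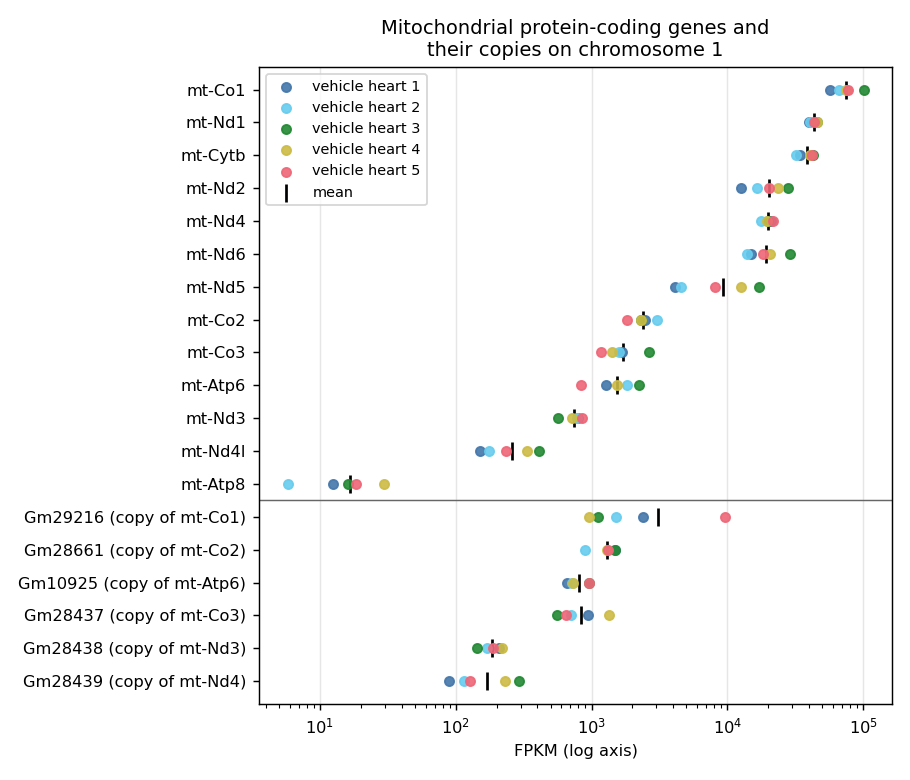
FPKM (log axis) of the 13 mitochondrial protein-coding genes, ordered by mean, and below the line the 6 copies on chromosome 1, with a point for each vehicle heart and a bar at the mean. mt-Nd5 spread from 4094 to 17015 FPKM, and Gm29216 reached 9548 FPKM in heart 5 against 956 to 2386 FPKM in the others.

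The remaining genes, called nuclear below, summed to between 259133 and 307708 FPKM per heart, and 10400 of them were expressed. Protein-coding genes held 90.2, 90.3, 88.6, 88.2 and 88.7% of this sum (89.2% ± 0.994) and 97.9% of the nuclear fragments. The next class by FPKM was annotated miRNA genes, with 2.74 to 6.08%, followed by processed pseudogenes with 2.69 to 3.09% and unprocessed pseudogenes with 1.64 to 4.47%. Long intergenic non-coding RNAs held 0.370 to 0.394% and antisense transcripts 0.214 to 0.245%. The 6 mitochondrial copies made up 92.3 to 98.3% of the unprocessed pseudogene sum.

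The miRNA class rested on 1 gene. Gm23935 held 94.1 to 97.8% of its FPKM and had the highest mean of all nuclear genes. It was at 9728, 10054, 14016, 18295 and 7550 FPKM in hearts 1 to 5. Heart 4 was highest and heart 5 lowest, and in heart 5 Hbb-bs, Hba-a1 and Gm29216 were above it. It is annotated as a hairpin of 57 bases on chromosome 16 (11144125 to 11144181, plus strand) inside an intron of Zc3h7a, which is read from the opposite strand. A gene this short turns few fragments into a high FPKM: from 6263 to 14519 fragments lay behind these values, and all miRNA genes together held 0.0679 to 0.153% of nuclear fragments. The annotated sequence is shown because the same 57 bases stand at 3 loci (Gm23935, Gm24270 on chromosome 9 and Gm24245 on chromosome 4), so that fragments from them cannot be assigned by sequence.
Gm23935: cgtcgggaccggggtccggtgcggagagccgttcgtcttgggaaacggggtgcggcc

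Gm24270 was at 264 to 408 FPKM. Whether either value measures a mature miRNA was not tested; the libraries were made from poly(A)-selected RNA. Without Gm23935 and the mitochondrial copies, chosen after their values were seen, protein-coding genes held 95.3% ± 0.134 of the nuclear FPKM.

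Of 34 expressed miRNA genes, 32 had a mean of fewer than 50 fragments. Among them was Mir208b, which lies in an intron of Myh7, the slow myosin heavy chain, as its relative Mir208a lies in an intron of Myh6, the fast one. The mature forms (miRNA table of RefSeq, GRCm38) share their seed, bases 2 to 8, shown in capitals.
mmu-miR-208a-3p: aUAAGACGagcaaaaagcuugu
mmu-miR-208b-3p: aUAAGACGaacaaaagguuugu

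The hairpin gene Mir208b was at 89.5, 25.2, 16.4, 14.9 and 19.6 FPKM in hearts 1 to 5, from 16 to 116 fragments. Heart 1 was above the others, which lay between 14.9 and 25.2 FPKM. Gm17428, a gene of 93 bases within an intron of Myh7 on the other strand, was at 37.1, 2.98, 0.756, 5.41 and 5.17 FPKM, and also highest in heart 1. Myh7 itself did not follow, since heart 4 had its highest value (below).

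The nuclear output was concentrated in few genes. The 10 genes with the highest mean held 18.2% ± 3.28 of the nuclear FPKM, the first 100 held 45.1% ± 2.45 and the first 1000 held 76.7% ± 1.67. A share of 50% of the sum lay in 142 genes and 90% in 3154. A mean of 1000 FPKM was reached by 33 nuclear genes, of which 30 were protein-coding, and 100 FPKM by 399.

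**Figure D2:**
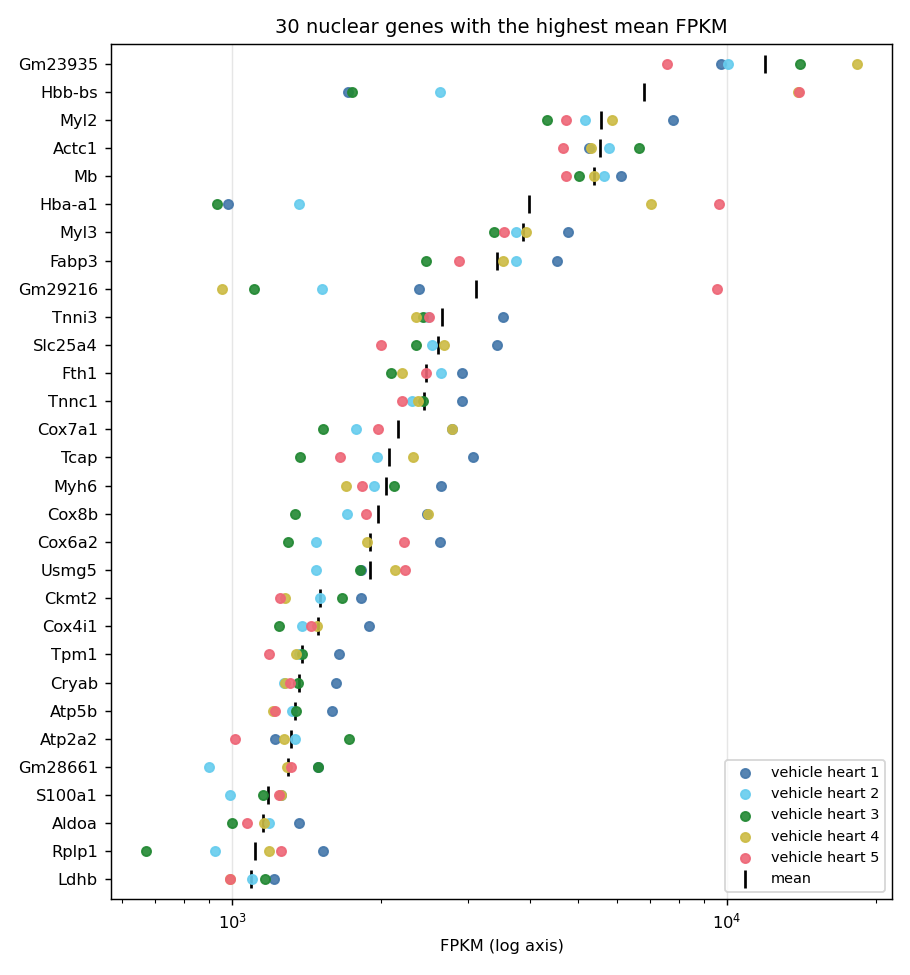
FPKM (log axis) of the 30 nuclear genes with the highest mean, with a point for each vehicle heart and a bar at the mean. Sarcomere and respiratory genes lie close together across hearts, whereas Hbb-bs, Hba-a1 and Gm29216 spread over about 8-fold or more.

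Hbb-bs had the highest mean of the protein-coding nuclear genes (6797 FPKM, described with the blood transcripts), and contractile genes followed. Among thick filament genes, Myl2, the ventricular regulatory myosin light chain, was at 7789, 5157, 4335, 5858 and 4729 FPKM in hearts 1 to 5, with heart 1 highest and heart 3 lowest. Myl3, the ventricular essential light chain, was at 3874 ± 539 FPKM, and Myh6, the adult mouse myosin heavy chain, at 2044 ± 368 FPKM. By fragments, which count long transcripts more, Myh6 was first of all nuclear genes, with 158869 to 298720. Mybpc3, the myosin-binding protein C gene, was at 825 ± 132 FPKM and the giant spring protein gene Ttn at 14.96 ± 1.66 FPKM. The 9 thick filament genes, all expressed, held 4.40% ± 0.620 of the nuclear FPKM.

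Thin filament genes held 4.62% ± 0.562, again with all 8 listed genes expressed. Actc1, cardiac actin, was at 5270, 5772, 6626, 5307 and 4670 FPKM, and its order of hearts differed from that of Myl2, since heart 3 was highest. The troponin subunits Tnni3 and Tnnc1 were at 2657 ± 486 and 2447 ± 273 FPKM, and Tpm1, tropomyosin, at 1386 ± 163 FPKM. The thin and thick filament shares overlapped between hearts (4.05 to 5.37% and 3.76 to 5.41%), but as shares of fragments they did not, at 4.41 to 4.99% for thin and 5.26 to 7.16% for thick filament genes. Z-disc and muscle cytoskeleton genes held 2.19% ± 0.266, led by Tcap, a titin cap protein, at 1375 to 3073 FPKM, and by the chaperone Cryab at 1272 to 1618 FPKM. Of the 11 calcium handling genes, Atp2a2, the pump that returns calcium to the sarcoplasmic reticulum, was at 1314 ± 258 FPKM and its inhibitor Pln at 621 ± 66.6 FPKM, although 49.6% of the 100-base runs of Pln also occur in another gene. The calcium release channel Ryr2 was at 20.8 ± 4.67 FPKM. Slc8a1, the sodium-calcium exchanger, was the only one of these 11 with a CV of at least 0.5, which 4.35% of all expressed genes reached, at 4.68, 5.58, 15.7, 7.20 and 5.20 FPKM, with heart 3 apart.

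Genes of energy metabolism came next. Mb, myoglobin, the oxygen store of muscle, was at 6119, 5643, 5027, 5387 and 4737 FPKM, a 1.29-fold range. Slc25a4, the ATP-ADP exchanger of the inner mitochondrial membrane, was at 2603 ± 531 FPKM and Ckmt2, mitochondrial creatine kinase, at 1505 ± 246 FPKM. Nuclear-encoded subunits of complex IV held 3.86% ± 0.591 of the nuclear FPKM, complex I 3.06% ± 0.401, complex V 2.46% ± 0.261, complex III with cytochrome c 1.72% ± 0.201 and complex II 0.389% ± 0.0453. The ranges of complexes I and IV overlapped (2.75 to 3.74% and 3.16 to 4.76%), although complex IV was the higher in each of the 5 hearts. The order depended on the scale, since as shares of fragments complex V held 2.79%, complex I 1.94%, complex IV 1.43% and complex III with cytochrome c 1.12%. The muscle forms Cox7a1, Cox8b and Cox6a2 led complex IV with 2167 ± 578, 1974 ± 498 and 1901 ± 543 FPKM, against 1492 ± 243 FPKM for Cox4i1, which all tissues use.

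Fatty acid genes held 2.44% ± 0.314 and glycolysis genes 1.87% ± 0.206, with ranges of 2.05 to 2.76% and 1.61 to 2.10% that overlap, and the fatty acid list was the higher in each of the 5 hearts. Fabp3, which carries fatty acids in the cytosol, made up much of the first, at 3428 ± 797 FPKM. Lpl, which frees fatty acids from lipoproteins, was at 499 ± 43.8 FPKM, Acadl at 461 ± 41.8 FPKM and Cd36, the fatty acid importer, at 293 ± 35.9 FPKM. Of the 22 fatty acid genes, only Cpt1b missed a mean of 1 FPKM. This gene for the muscle carnitine palmitoyltransferase was listed at 0.392 ± 0.187 FPKM, and 75.6% of its 100-base runs occur in another annotated gene, so its level is uncertain. The glycolytic gene Gapdh was listed at 67.3, 1.28, 24.7, 70.6 and 124 FPKM, with heart 2 lowest, at 76 fragments, and heart 5 highest, and 20.9% of its runs are shared. Its value is uncertain, and the part of shared sequence in it was not tested. The glycolysis sum includes this value, and its bearing on the order of the fatty acid and glycolysis lists was not tested. The lists also differ in size, with 22 fatty acid and 14 glycolysis genes. Gapdh varied most of the glycolysis genes, whereas Aldoa and Ldhb, at 1157 ± 139 and 1092 ± 102 FPKM, had CVs of 0.120 and 0.0936.

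Cytosolic ribosomal protein genes made up 4.95% ± 0.631 of the nuclear FPKM, with 74 of 78 expressed, and mitochondrial ribosomal protein genes 0.887% ± 0.0826, with 77 of 78 expressed. All 27 role lists together, each gene counted once, held 41.9% ± 3.38. The cytosolic ribosome was at a summed 17360, 12260, 10674, 15225 and 15679 FPKM in hearts 1 to 5. Heart 1 was highest and heart 3 lowest here, and the same was true of complex I (11360 and 7133 FPKM) and complex IV (14453 and 8178 FPKM), all made of short transcripts. Over the 9527 expressed nuclear protein-coding genes, the deviation of a heart from the mean of the hearts moved with gene length in these hearts. In the eighth of genes that were shortest (27 to 1831 bases) the median deviation on the log2 scale was 0.17 in heart 1 and -0.22 in heart 3, and in the longest eighth (8503 to 116825 bases) it was -0.11 and 0.17. Hearts 2, 4 and 5 stayed within 0.07 in every length class. The part of gene length in the ribosomal and respiratory values of hearts 1 and 3 was not tested.

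**Figure D3:**
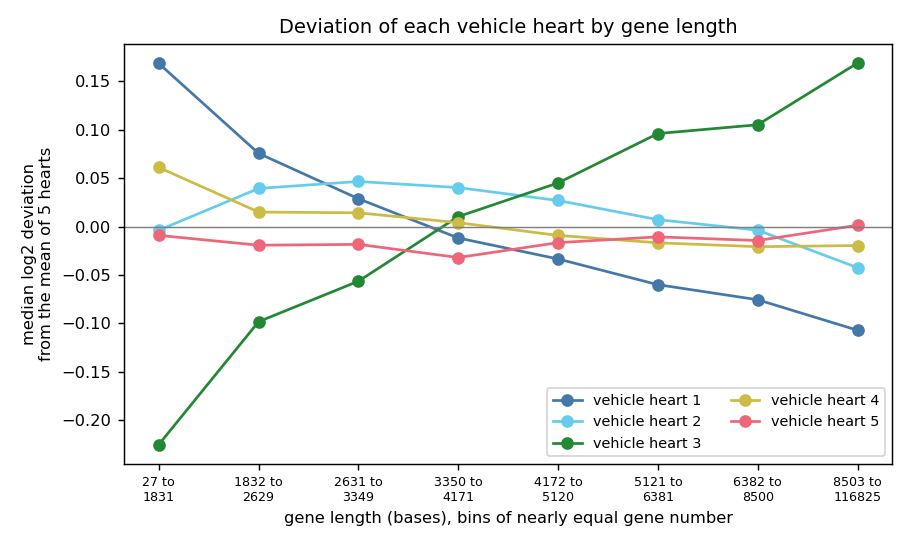
Median deviation of each vehicle heart from the mean of the 5 hearts (log2 scale) in 8 classes of gene length with nearly equal numbers of expressed nuclear protein-coding genes. Heart 1 falls from 0.17 to -0.11 and heart 3 rises from -0.22 to 0.17 from the shortest to the longest genes.

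Cells other than myocytes were present in each heart, and for bulk tissue fewer cells of a type cannot be told apart from less RNA per cell. The summed fibroblast, endothelial and pericyte markers spread over 1.51-fold, 1.62-fold and 1.32-fold between hearts. All 8 fibroblast markers were expressed and summed to 230, 255, 252, 287 and 346 FPKM, led by Dcn and Dpt, matrix proteins, at 113 ± 22.0 and 76.5 ± 16.9 FPKM. All 8 endothelial markers summed to 136 to 219 FPKM, led by Cdh5, the endothelial cadherin, at 38.0 ± 5.08 FPKM. All 7 pericyte markers summed to 146 to 193 FPKM, led by Rgs5 at 111 ± 13.6 FPKM. None of these 23 genes had a CV of 0.5 or more, against 4.35% of all expressed genes, a share too small for 0 of 23 to set them apart, and the median CV of the lists was 0.193, 0.226 and 0.279 against 0.176 over all expressed genes. Activated fibroblast markers spread further, at 19.3, 24.2, 11.98, 23.9 and 35.2 FPKM in sum, as did lymphatic endothelial markers (23.1 to 67.3 FPKM) and mesothelial markers (7.09 to 22.0 FPKM). The 10 macrophage markers were also all expressed and summed to 504, 555, 462, 490 and 787 FPKM, with heart 5 highest. Lyz2, lysozyme, led them at 233, 270, 246, 258 and 398 FPKM, followed by the complement genes C1qa and C1qb, also highest in heart 5. Smooth muscle markers summed to 53.7 to 98.1 FPKM, led by Acta2 at 42.8 ± 13.3 FPKM.

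**Figure D4:**
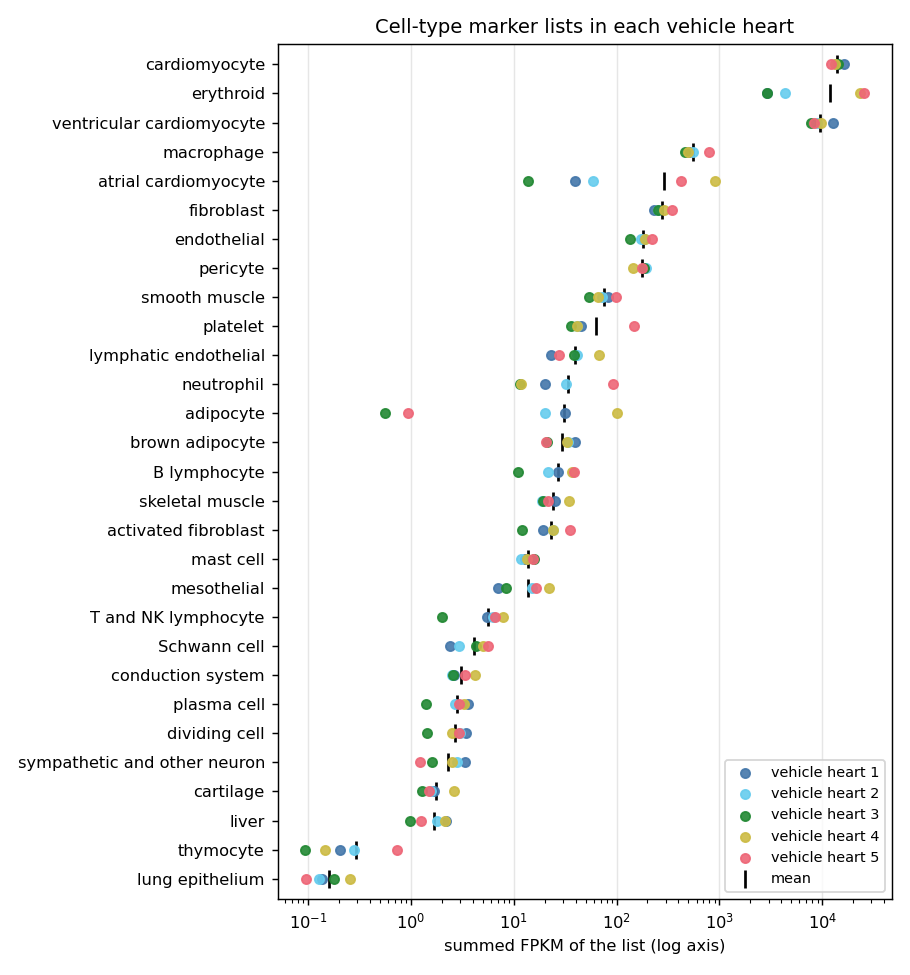
Summed FPKM (log axis) of each of the 29 cell-type marker lists, ordered by mean, with a point for each vehicle heart and a bar at the mean. Fibroblast, endothelial and pericyte sums spread over at most 1.62-fold, atrial sums over 65.4-fold and adipocyte sums over 183-fold.

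Other sources differed between the hearts by much more. Of the 29 cell-type lists, 18 had a highest heart at least 2-fold above the lowest, though 8 of these had a mean sum under 5 FPKM. The ventricular markers Myl2, Myl3, Irx4 and Hey2 together spread over 1.62-fold, from 7736 to 12570 FPKM, almost all of it the 2 light chains, while the 6 atrial markers summed to 39.7, 59.0, 13.7, 898 and 423 FPKM. Hearts 4 and 5 were high and heart 3 lowest. Myl7, the atrial regulatory light chain, was at 10.98, 27.0, 2.03, 615 and 258 FPKM, a 304-fold range. Myl4, the atrial essential light chain, was at 1.4996, 5.52, 0.349, 110 and 51.3 FPKM. Sln, sarcolipin, the atrial inhibitor of the calcium pump, was at 0.406, 5.58, 0, 112 and 73.0 FPKM, from 0 to 2062 fragments. In all 3 genes hearts 4 and 5 stood at least 9-fold above the others. Bmp10, made in the right atrium of the adult, went otherwise, at 0.106, 1.41, 0, 0.880 and 0 FPKM, and had no fragment in heart 5. Of the 6 atrial markers 5 were expressed, and 4 of these had a CV of at least 0.5, against 4.35% of all expressed genes. The remaining expressed marker stayed below that CV.

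Blood transcripts also differed. The erythroid list of 6 genes, nearly all of it the 4 globins, summed to 2888, 4298, 2885, 23492 and 25701 FPKM, between 0.950 and 8.82% of the nuclear FPKM. Hearts 4 and 5 were again the high ones. Hbb-bs, beta globin, was at 1711, 2628, 1743, 13898 and 14004 FPKM, and Hba-a1, alpha globin, at 983, 1364, 931, 7014 and 9642 FPKM. The globin genes share 49.7 to 79.5% of their 100-base runs with another annotated gene, so their single values are uncertain, but Slc4a1, the red cell anion exchanger, and Bpgm, which sets the oxygen affinity of haemoglobin, share none and were also highest in these hearts. Bpgm was at 7.65, 12.8, 10.02, 50.2 and 57.9 FPKM, and Slc4a1 at 0.170, 0.142, 0.101, 2.53 and 1.57 FPKM. Platelet genes separated heart 5 from heart 4. Ppbp, a platelet chemokine, was at 2.25, 2.498, 2.47, 4.84 and 34.3 FPKM, and the platelet list summed to 45.5, 41.5, 36.1, 41.5 and 148 FPKM. The neutrophil list was also highest in heart 5, at 20.1, 32.6, 11.5, 11.8 and 93.3 FPKM, of which S100a9, a subunit of calprotectin, gave 12.9, 20.7, 5.79, 6.74 and 65.7 FPKM. The neutrophil granule genes Ngp, Camp and Ltf, made in bone marrow, had at most 3 fragments in any heart.

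Adipocyte transcripts varied most of all the lists, at 31.4, 20.0, 0.559, 102 and 0.950 FPKM. Heart 4 was highest, and hearts 3 and 5 were near 0. Cfd, adipsin, was at 25.4, 15.1, 0.229, 83.0 and 0.373 FPKM, and Car3, a carbonic anhydrase abundant in fat and slow muscle, at 6.10, 9.66, 0.172, 22.4 and 0.408 FPKM. Adipoq, adiponectin, had 55, 37, 0, 141 and 0 fragments. Heart 4, with the highest adipocyte sum, also had the highest atrial sum, but heart 5, which was high for atrial markers, was not high for fat. Ccl21a, a lymphatic chemokine, was likewise highest in heart 4, at 53.6 FPKM against 12.1 to 26.7 FPKM for its copy on a scaffold outside the assembled chromosomes, while the lymphatic genes Prox1 and Flt4 spread little, with CVs of 0.144 and 0.141. Lymphocyte lists were low. The B lymphocyte list was at 26.8, 21.7, 11.1, 37.1 and 38.7 FPKM, most of it the antibody constant regions Igkc and Ighm, and the 10 T and NK lymphocyte genes summed to 2.02 to 7.80 FPKM. Dividing cells were scarce by their transcripts, with Mki67 at 0.447 ± 0.0801 FPKM and Top2a at 0.345 ± 0.0670 FPKM.

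Genes that respond to load or belong to the fetal heart split by heart in ways that partly followed the atrial markers. Nppa, atrial natriuretic peptide, was at 194, 210, 178, 1298 and 419 FPKM, with heart 4 far above, and is also an abundant atrial gene. Nppb, brain natriuretic peptide, was at 504, 503, 792, 1379 and 561 FPKM, again highest in heart 4. Myh7 was at 27.3, 20.2, 22.8, 60.9 and 19.5 FPKM, so that heart 4 was at least 2-fold above the rest, but the level of Myh6 exceeded that of Myh7 in every heart. Ankrd1, a stretch-responsive nuclear protein, was at 664, 614, 835, 1361 and 628 FPKM. Acta1, skeletal actin, had another order, at 51.3, 82.2, 46.9, 162 and 262 FPKM, highest in heart 5. Xirp1 and Xirp2, proteins of the intercalated disc, spread little, with CVs of 0.228 and 0.156. Atrial markers were 898 and 423 FPKM in hearts 4 and 5 against at most 59.0 FPKM in the others, and their part in the Nppa, Nppb, Myh7 and Acta1 values was not tested.

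Rit1, the gene that carries the M90I allele, lies on chromosome 3 (88716838 to 88731049, plus strand). It was at 16.4, 14.8, 12.8, 15.8 and 13.4 FPKM (14.6 ± 1.53, SD, n = 5), from 588 to 889 fragments, and ranked 2195th of nuclear genes. FPKM does not separate the M90I allele from the other. Among other RAS family genes, Rras was at 44.7 ± 10.1 FPKM, Hras at 18.8 ± 3.62, Rras2 at 14.2 ± 2.11, Nras at 4.70 ± 0.368 and Mras at 1.11 ± 0.236 FPKM. In that order Rras was above the rest in every heart, Hras, Rit1 and Rras2 overlapped in their ranges, and Nras and Mras lay below them in every heart without overlapping each other. The substrate adaptor Lztr1, through which RIT1 is degraded, was at 5.58 ± 0.761 FPKM. The RAF kinase gene Braf was at 0.750 ± 0.0815 FPKM, and Mapk3, which encodes an ERK kinase, at 29.4 ± 3.17 FPKM. Map2k2 and Map2k1, the targets of MEK inhibitors, were at 21.3 ± 3.37 and 12.1 ± 2.12 FPKM, without overlap. Of the 20 RAS-MAPK genes listed, 19 were expressed, and none had a CV of 0.5 or more, against 4.35% of all expressed genes, so that under 1 of 19 would be counted at that share. Their median CV was 0.175, close to the 0.176 of all expressed genes. Their sum was at 225, 220, 221, 238 and 239 FPKM, a 1.09-fold range and the narrowest of the 27 role lists.

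The 10 listed genes that rise with MAPK output summed to 34.5, 46.2, 51.9, 48.5 and 46.0 FPKM, with 8 expressed. Dusp6, a phosphatase that removes the activating phosphates of ERK, was at 4.21, 6.11, 5.95, 7.87 and 8.34 FPKM, and Spry2, a feedback inhibitor, at 6.99 ± 0.610 FPKM. Etv4 and Dusp4 had means under 1 FPKM. Ace (chromosome 11), angiotensin converting enzyme, was at 11.1, 13.7, 13.8, 12.9 and 17.3 FPKM, and Errfi1 (chromosome 4), an inhibitor of the EGF receptor, at 2.57, 3.95, 4.08, 4.15 and 3.15 FPKM. Neither had a heart that stood apart.

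Immediate early genes, which rise within minutes of stress or handling, summed to 144 to 166 FPKM, a 1.15-fold range. Fos was at 1.60 ± 0.516 FPKM and Jun at 14.9 ± 3.32 FPKM. Of the 15 that were expressed, Nr4a1 and Egr1 had a CV of at least 0.5, against 4.35% of all expressed genes. Both were highest in heart 1, at 10.2 and 8.09 FPKM. Clock genes had a median CV of 0.208, against 0.176 over all expressed genes. Dbp was at 36.0, 37.3, 26.5, 35.9 and 21.9 FPKM, Nr1d1 at 16.7 ± 3.48 FPKM and Per2 at 2.76 ± 0.861 FPKM, while Arntl, which peaks opposite to them, had a mean under 1 FPKM. The heat shock list, at 1965 to 2812 FPKM, was highest in heart 3, which also had the highest mitochondrial share. Hsp90aa1, an inducible chaperone, was at 56.7, 43.7, 110, 39.6 and 50.1 FPKM, and Hsph1 at 11.5, 8.89, 22.1, 7.13 and 10.6 FPKM. Both are a small part of the list sum. Of the 12 expressed heat shock genes, 1 had a CV of at least 0.5, against 4.35% of all expressed genes. The part of gene length in the heat shock sum of heart 3 was not tested.

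Across all genes the spread between hearts was modest. The median CV of the 10433 expressed genes was 0.176, against a median of 0.0575 for the CV that counting alone gives at these fragment numbers, and 97.1% of them had a CV above their counting CV. A CV of at least 0.5 was reached by 454, 4.35% of the expressed genes. They were 219 of 9540 protein-coding genes (2.296%) and 235 of 893 others (26.3%). Of the 99 expressed genes shorter than 200 bases, 74 (74.7%) reached it. Among genes that share at least 50% of their 100-base runs with another gene it was 65 of 378 (17.2%), against 342 of 9986 others (3.42%). These counts are descriptions. The correlation of log2(FPKM + 0.1) between hearts, across the 10433 genes, ran from 0.937 (hearts 3 and 5) to 0.970 (hearts 2 and 4) by Pearson's r, and the closest pair differed by a median of 0.19 on the log2 scale. Genes are not independent replicates, and these are descriptions.

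**Figure D5:**
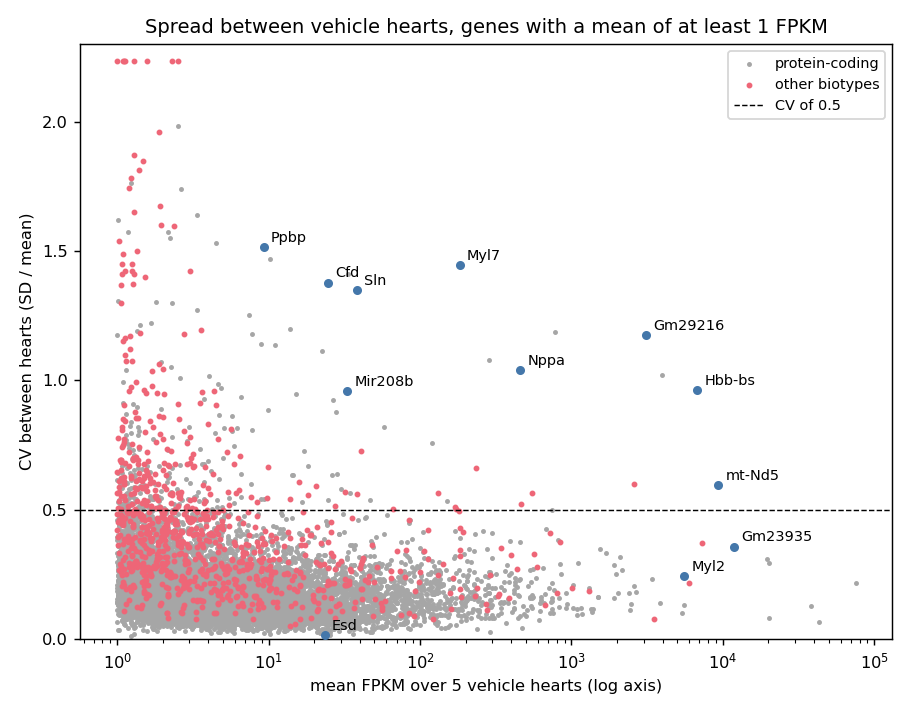
CV between the 5 vehicle hearts against mean FPKM (log axis) for all 10433 expressed genes, with protein-coding genes in grey, other biotypes in red and the genes written beside their points in blue. Most genes lie below a CV of 0.5 (dashed), and abundant genes far above it include Hbb-bs, Myl7, Nppa and Gm29216.

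The 454 genes fell into 27 patterns of hearts above the mean, of which the largest held 67. Heart 5 was the highest in 141 of the 454 and heart 4 in 113, whereas heart 3 was the lowest in 143. In 67 genes hearts 4 and 5 alone lay above the mean. Among them were the globins, the atrial genes Myl7, Myl4, Sln, Dkk3 and Mybphl, Acta1, and genes also expressed in red cell precursors (Ube2l6, Isg20 and Cd24a). Mybphl, a myosin-binding protein of atrial and conduction myocytes, was at 1.91, 3.86, 2.37, 39.8 and 21.4 FPKM. Heart 5 alone lay above the mean in 51, among them Gm29216, platelet genes (Ppbp, Pf4), S100a8 and S100a9, Ctla2a, Nrgn, Smoc1 and the imprinted RNA H19. Ctla2a was at 9.95, 8.39, 5.44, 11.3 and 40.4 FPKM, Smoc1 at 3.32, 3.79, 2.96, 5.42 and 17.6 FPKM, and H19 at 34.2, 34.4, 14.7, 28.4 and 91.7 FPKM. Npr3, the natriuretic peptide clearance receptor, and Plvap, a protein of endothelial diaphragms, were named after their values were seen. They were at 2.98, 3.44, 3.62, 5.79 and 14.9 FPKM and at 19.02, 19.3, 14.1, 30.6 and 59.0 FPKM. Hearts 1 and 4 alone lay above the mean in 31, among them Cfd, and hearts 3 and 4 in 29, among them mt-Nd5.

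In 31 genes a heart had at most 3 fragments while another had at least 50. Heart 3 had the lowest fragment number, alone or tied with another heart, in 16 of them. Beside Sln, Cfd and Adipoq they included Hamp, hepcidin, which regulates iron, with 1, 6, 0, 65 and 0 fragments, Cyp2e1 with 138, 73, 3, 315 and 3, and Gp5, a platelet glycoprotein, with 1, 17, 2, 15 and 124 fragments, all 3 named after their values were seen. For Sln, 3 fragments were worth at most 0.163 FPKM in any heart. Against that value its level in heart 4 was 687-fold higher, while heart 3 had no fragment of it.

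Among genes whose mean reached 10 FPKM, the steadiest were Esd, Pla2g16, Med30, Cct8, Rnf114, Gsta4, Tef, Tmbim6, Ndufv2 and Mettl9. Esd, esterase D, was at 23.5, 23.5, 23.2, 23.9 and 23.0 FPKM, a CV of 0.0145. Ndufv2, a core subunit of complex I, was at 303, 288, 292, 281 and 291 FPKM, and Tef, a transcription factor under clock control, at 21.1, 20.2, 21.5, 20.4 and 20.6 FPKM. They were picked for their small CV from all genes at this level, so these values are a description.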

How the data were processed

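Poly(A)-selected RNA of hearts was sequenced by the study. The authors deposited one table of FPKM per gene and heart, with gene length, biotype and coordinates; replicates were not pooled. The submitters' processing notes name fastp, STAR 2.5, HTSeq 0.6.1 and mm10; the annotation release and the step from counts to FPKM are not given in the sources used here. Coordinates equal those of GENCODE M21 on GRCm38 for 98.2% of 50311 matched identifiers. An effective library size of 0.925 to 1.06 times the assigned fragments lay behind the FPKM of each heart, so the values were already scaled between hearts.

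The 5 vehicle columns were used and the others were not compared with them. Genes outside X and Y were kept, and fragments were recovered as FPKM times length over the smallest step. Expressed means a mean of at least 1 FPKM; spread is the CV (SD over mean, n = 5). The counting CV is 1 over the square root of the mean fragments. With 1 group no condition could be tested, and an exact permutation test that flips the signs of 5 paired values cannot go below p = 0.0625, so ranges over hearts are given. Shared sequence is the share of 100-base runs of a gene's transcripts (GENCODE M21) also found in another gene, computed for 99.3% of expressed genes. Python 3.11.15, numpy 2.4.6, pandas 2.3.3, scipy 1.17.1 and matplotlib 3.10.9 were used. Fragments were also simulated for 10433 genes. A CV of at least 0.5, with a mean of at least 0.5 FPKM, was reached by 90.0% of 200 genes given a CV of 1. It was reached by 0.606% of the other genes, all given a CV of 0.15. Real genes do not share a single CV, so this share is not a rate of false calls in these hearts.

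The genes named are the 30 nuclear genes and the mitochondrial protein-coding genes with the highest mean, the 25 with the largest CV at a mean of at least 5 FPKM, the 10 with the smallest CV at a mean of at least 10 FPKM, up to 5 of each other biotype holding at least 0.01% of nuclear FPKM, members of gene lists where discussed, Rit1, Ace and Errfi1. The genes studied and the lists were chosen with earlier results of these data known. Of the listed genes, Bgn lies on X and was left out, Ccn1 and Bmal1 were matched by their names Cyr61 and Arntl, and Aldoa and Ccl21a are each annotated at 2 loci (for Aldoa, the values of the higher are given). Alternatives were each heart left out, TPM over all or over nuclear genes, other minimum levels, other measures of spread, and shares of fragments. Some members of these lists are not reported here by name; list sums and counts include them.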

Additional observations from a re-analysis of the deposited data

Results flagged for a closer look

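Among 138 sets of 5 heart values (marker and role list sums, the named genes and the shares), 19 had 1 heart whose gap to the next was larger, relative to the range, than Dixon's 95% critical value. In sets not chosen by their values, chance alone gives about 1 in 20. That rate does not apply to the 19, because the named genes include 25 chosen for their large CV between these same hearts, which gave 9 of the 19, and because genes also belong to lists. Heart 5 was the odd one in 10, heart 1 in 5 and heart 4 in 4. No cause was tested for any of them.

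Heart 5 was high for the summed macrophage list, at 787 FPKM against 462 to 555 in the others, the neutrophil list (93.3 against 11.5 to 32.6), the platelet list (148 against 36.1 to 45.5) and the thymocyte list (0.741 against 0.0949 to 0.281, near the floor). It was also high for Ctla2a (40.4 FPKM against 5.44 to 11.3), Gm29216 (9548 against 956 to 2386), Nrgn (27.0 against 2.77 to 6.97), Ppbp (34.3 against 2.25 to 4.84), S100a9 (65.7 against 5.79 to 20.7) and Smoc1 (17.6 against 2.96 to 5.42).

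Heart 4 was high for the natriuretic peptide list, at 2678 FPKM against 698 to 980, for the fetal and strain-responsive list, at 4314 against 1481 to 1942, for Nppa, at 1298 against 178 to 419, and for the cartilage list, at 2.66 against 1.30 to 1.69. Atrial markers summed to 898 FPKM in this heart. Heart 1 was high for the nuclear complex V list, at 8688 FPKM against 6392 to 6952, for Tnni3 (3521 against 2350 to 2494), Cryab (1618 against 1272 to 1359), Mir208b (89.5 against 14.9 to 25.2) and Gm17428 (37.1 against 0.756 to 5.41).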

How the results depend on the processing

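The count of expressed genes stayed within 1.5 times of 10433 except with a mean of at least 5 FPKM (4987) and with no minimum beyond a fragment in any heart (21728). The count with a CV of at least 0.5 depended far more on the minimum level. It was 454, and became 904 at a mean of 0.5 FPKM, 81 at 5 FPKM, 8980 with no minimum, 848 on a TPM scale over all genes and 1592 over nuclear genes. These TPM scales changed both the minimum and the scaling between hearts, shared 419 and 411 of the 454 genes, and the cause of the rise was not tested. An SD of log2(FPKM + 1) of at least 0.7 gave 197, of which 189 were among the 454. Taking out the counting variance left 372. As shares of fragments instead of FPKM, mitochondrial genes fell to 29.96%, protein-coding genes rose to 97.9%, the top 10 genes held 12.1% and the role lists 37.8%; by construction fragments weight long transcripts more. Chosen after seeing the data, leaving out the mitochondrial copies and Gm23935 moved the protein-coding share to 95.3%.

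When single hearts were omitted, the expressed count was 10393 to 10444, the high-spread count 406 to 551, the mitochondrial share 45.1 to 48.6%, the protein-coding share 88.9 to 89.5%, the top 10 share 17.3 to 18.9%, the role list share 40.6 to 42.9% and the lowest correlation between hearts 0.935 to 0.944. The number of cell-type lists with a 2-fold range was 11 to 18, with 11 when heart 3 was left out. Without heart 3 the atrial range fell from 65.4-fold to 22.6-fold and the adipocyte range from 183-fold to 107.3-fold; without heart 4 they were 30.8-fold and 56.2-fold. Without heart 5 the platelet range was 1.26-fold in place of 4.11-fold and the neutrophil range 2.84-fold in place of 8.10-fold. Of the values for single lists, 359 moved little and 33 moved, 18 of these on the fragment scale.

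No paired analysis was possible because the vehicle hearts form 1 group and were compared with no other. A count of 0 in a gene of 1 kilobase allows up to 0.178 to 0.215 FPKM, and counting limits leave out variation between animals.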
